A study of Mus musculus with 6 samples.

Results

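The genes described here are those of the core Notch pathway in AML12 cells, a mouse hepatocyte line. The list held 10 genes, namely the receptors Notch1, Notch2 and Notch3, the ligands Jag1, Jag2 and Dll1, the DNA-binding partner Rbpj and the target genes Hes1, Hey1 and Nrarp. They were chosen by name. Rows with exactly these names were taken from the deposited count tables, and 9 of the 10 genes had one among the 25330 genes listed. No row was named Dll1, and it was not analysed here. Of the 9 genes, 8 had enough counts for a test.

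Cells without and with hypoxia and reoxygenation were compared. Wild-type AML12 cells were kept at 21% oxygen (normoxic control, 3 libraries), or were held at 1% oxygen and 37 °C for 6 h in medium without serum and glucose and then reoxygenated for 2 h (H/R, 3 libraries). Before this, cells of both groups had been grown in medium with 10% serum, insulin-containing supplement and 40 ng/mL dexamethasone. The change of medium was part of the H/R treatment only, so its effect and that of oxygen cannot be told apart. The line was established from a mouse with a transgene for human transforming growth factor alpha, and it is a single line grown without the other cells of the liver.

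Notch receptors are membrane proteins that are activated by ligands of the Jagged and Delta families on a neighbouring cell. Ligand binding leads to cleavage of the receptor by an ADAM protease and then by gamma-secretase, and the freed intracellular domain enters the nucleus, where it binds RBPJ and a Mastermind coactivator and switches on genes such as those of the HES and HEY repressors. In the liver the pathway is best known for bile duct formation, in which JAG1 and NOTCH2 have a central part.

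Library totals lay between 21026650 and 21854790 counts in the control group and between 20438746 and 21742441 in the H/R group. Of 8 common hypoxia-responsive genes, 7 were higher after H/R by at least 2-fold with an adjusted p under 0.05, and 1 did not pass. Among all genes tested, 4.25% were higher by the same thresholds. The 11 hepatocyte markers summed to 2504 to 2714 RPKM (counts scaled for exon length and library total) in control libraries and 3738 to 3767 RPKM in H/R libraries, most of it from the keratin genes Krt8 and Krt18. The factor gene Hnf4a was at 29.6 RPKM in control cells and 20.6 RPKM after H/R, whereas the secreted liver products were low, with Alb at 5.82 and 0.756 RPKM and Serpina1a near 0 in most libraries. Alb, Ttr and Apob were called lower. Of the 8 biliary markers, Krt19, Krt7, Sox9 and Spp1 were also well detected, while Cftr and Sctr had at most 2 counts and Epcam had no row. The summed level of the 7 biliary markers listed was 668 to 759 RPKM in control libraries and 1104 to 1158 RPKM in H/R libraries, and the part of either list in the results below was not tested. The biliary markers did not move together, as Krt7 (log2 fold change 0.79), Krt19 (1.00) and Sox9 (2.5) rose and Spp1 fell (-0.57, standard error 0.045, adjusted p = 2.63e-13). Among markers of cells that are not epithelial, the endothelial genes Pecam1, Cdh5, Kdr and Tek and the macrophage genes Ptprc, Adgre1 and Clec4f had 3 counts or fewer in every library. The endothelial list summed to at most 0.0959 RPKM in any library. The macrophage list summed to between 1.15 and 1.31 RPKM in control libraries and between 5.00 and 5.76 RPKM after H/R, mostly through Cd68, a lysosomal protein gene (log2 fold change 2.77, standard error 0.19). Stellate cell markers summed to at most 0.234 RPKM, with Acta2, Pdgfrb and Lrat at 2 counts or fewer. Control replicate 1 stood apart from the other controls, with 61 counts of the liver gene Serpina1a against 1 and 0. Without this library the number of members past an adjusted p of 0.05 was 7 and the number that also reached 2-fold was 2, the same counts as with it.

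Across the 8 members tested, the components of the pathway did not move as one. Rbpj, Notch1, Jag1, Jag2 and Hes1 rose after H/R, Notch2 and Hey1 fell, and Nrarp did not pass the test. In numbers, 7 of the 8 had an adjusted p under 0.05 (quasi-likelihood test of edgeR, Benjamini-Hochberg method over 14020 genes), against 62.8% of all genes tested. Of these 7, 5 were higher and 2 lower, against 31.0% and 31.8% of all genes. Only Rbpj and Hey1 also reached a 2-fold change, against 8.52% of all genes tested, 4.25% as higher and 4.27% as lower. The median log2 fold change over the 8 members was 0.49, beside -0.01 over all genes. In each of the 7 members past the threshold the H/R libraries did not overlap the control libraries, which was also seen for 65.9% of all genes. The smallest two-sided p of an exact permutation test on 3 against 3 libraries is 0.1, and each of these 7 genes had that value. In bulk RNA, fewer cells that express a gene and less RNA per cell cannot be told apart.

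**Figure D1:**
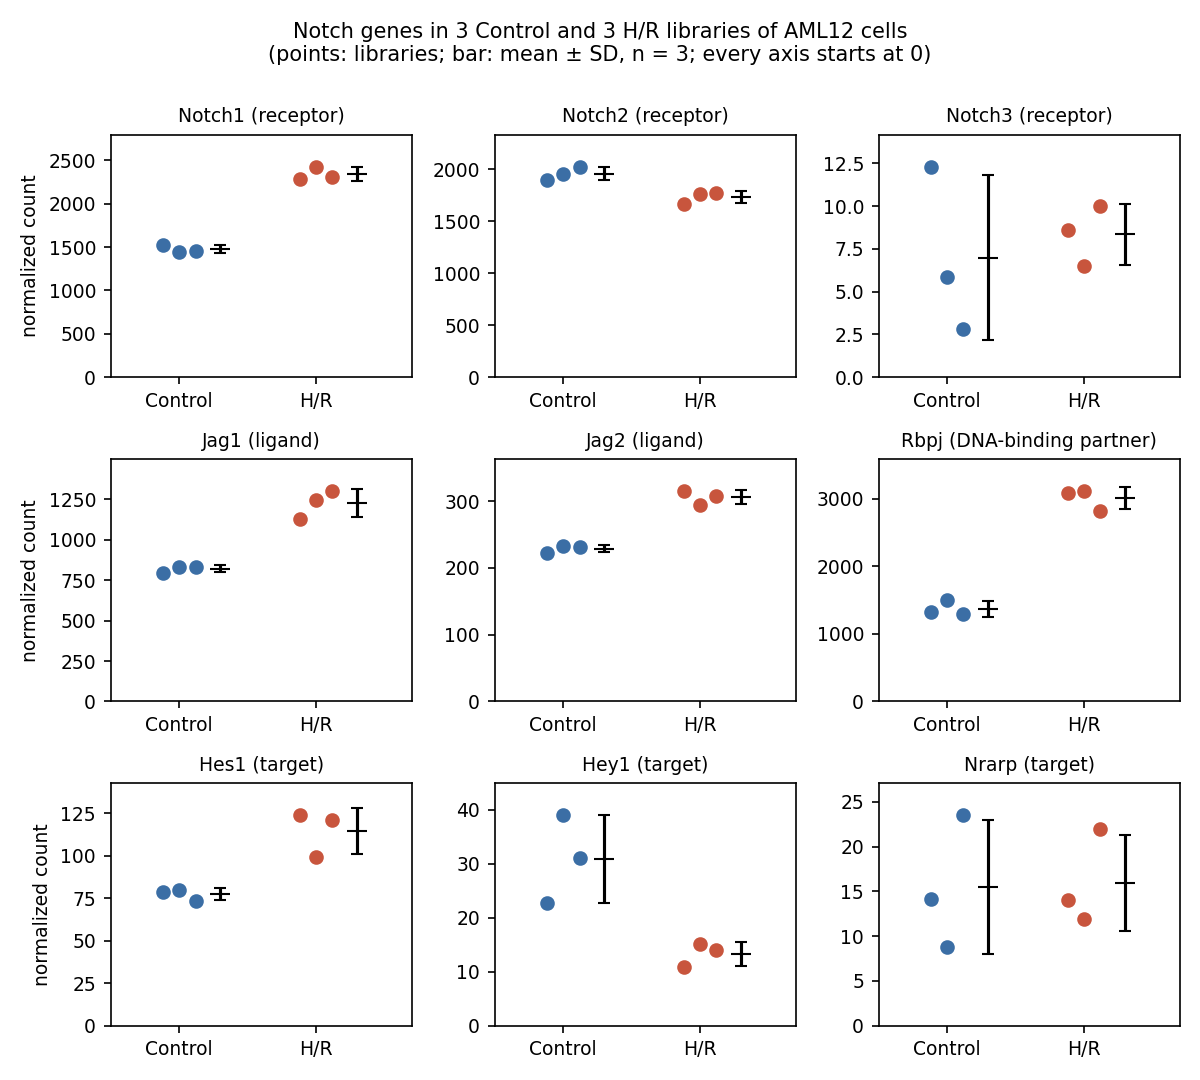
Normalized counts of the 9 Notch genes with a row, 1 panel per gene, in 3 control (blue) and 3 H/R libraries (red) of AML12 cells. Points are libraries, the bar at the side of each group is the mean ± SD (n = 3), and every vertical axis starts at 0. The groups are apart in 7 panels and overlap for Notch3 and Nrarp.

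Among the receptors, Notch1 rose and Notch2 fell slightly. Notch1 (chromosome 2 of GRCm38, 26457903 to 26516663, minus strand) was counted 1612, 1485 and 1548 times in control libraries 1, 2 and 3, and 2125, 2251 and 2309 times in H/R libraries 1, 2 and 3. All H/R libraries were thus above all controls, with little spread within a group. The normalized count, scaled for library size by the TMM method of edgeR, was 1477 ± 42.7 in control cells and 2341 ± 75.4 in H/R cells (SD, n = 3 each). This was a 1.58-fold rise (log2 fold change 0.66, standard error 0.046, adjusted p = 1.34e-14).

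Notch2, the receptor that acts with JAG1 in bile duct formation, lies on chromosome 3 (98013527 to 98150361, plus strand). Its controls held 2001, 2007 and 2154 counts, and the H/R libraries 1552, 1635 and 1775. Here every H/R library was below every control, but the gap was narrow. The normalized count went from 1960 ± 66.6 to 1736 ± 56.3 (SD, n = 3 each), a 1.13-fold decrease (log2 fold change -0.17, standard error 0.047, adjusted p = 0.00152). As many as 71.4% of all genes tested had an absolute log2 fold change at least as large.

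Notch3, a receptor best known from vascular smooth muscle (chromosome 17, 32120820 to 32166880, minus strand), was barely detected, at 13, 6 and 3 counts without and 8, 6 and 10 counts with H/R. Its normalized count was 6.99 ± 4.85 and 8.36 ± 1.78 (SD, n = 3 each). These counts were too low for a test, and the groups overlapped. Notch4, the remaining mammalian receptor and a gene of endothelial cells, was on the list of other pathway genes. From 64, 64 and 80 counts without H/R it went to 129, 117 and 128, a rise of 1.98-fold (log2 fold change 0.98, standard error 0.14, adjusted p = 3.1e-07) that stopped just short of the 2-fold threshold. The endothelial markers at 3 counts or fewer were named above.

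Because Notch1 and Notch2 moved apart, their shares among the transcripts of Notch1, Notch2 and Notch3 changed. Notch4, at 0.402 RPKM in control cells and 0.740 RPKM after H/R, was not part of this sum. Receptor protein was not measured in these libraries. On the per-length scale of the deposited RPKM values, Notch1 made up 37.7%, 35.8% and 35.2% of the summed RPKM of Notch1, Notch2 and Notch3 in the control replicates. In the H/R replicates its share was 50.7%, 50.9% and 49.5%. Notch2 was thus ahead in each control library, while the shares of both were near 50.4% and 49.3% after H/R. The mean share of Notch1 rose from 36.2% ± 1.3 to 50.4% ± 0.81 (SD, n = 3 each), or by 14.1 percentage points (p = 0.1 by a two-sided exact permutation test, the lowest that is possible here). The ratio of Notch1 to Notch2 was between 0.545 and 0.610 in control libraries and between 0.986 and 1.04 in H/R libraries. Such shares do not depend on how libraries are scaled to one another. Notch3 stayed under 0.54% of the sum in each library.

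**Figure D2:**
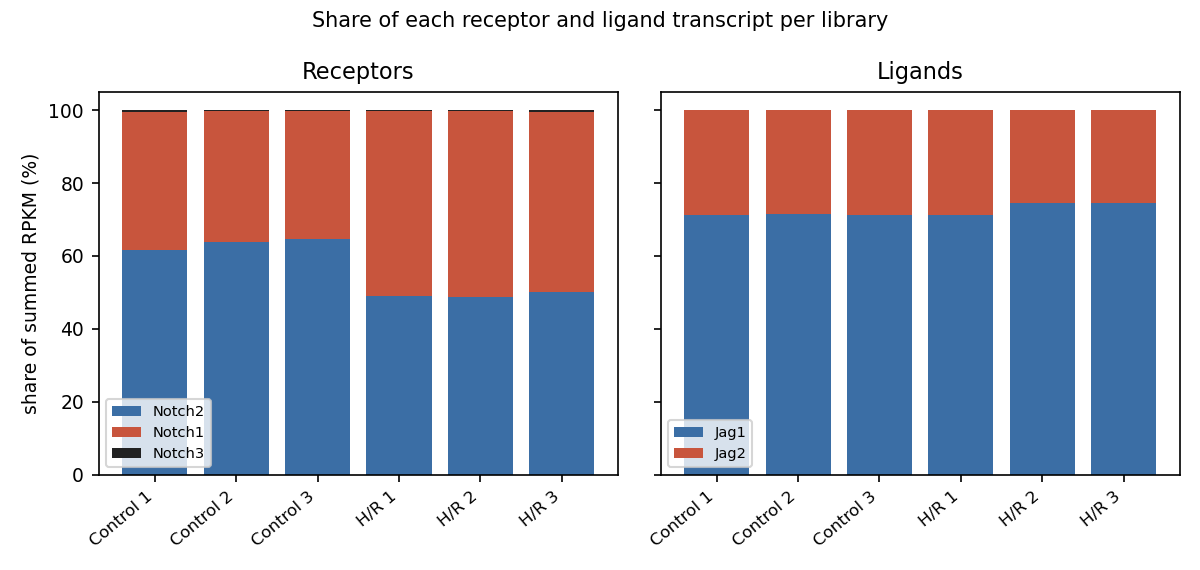
Share of each transcript in the summed RPKM of the receptors Notch1, Notch2 and Notch3 (left) and of the ligands Jag1 and Jag2 (right), in percent, with 1 bar per library. Notch1 takes 35.2% to 37.7% of the receptor sum in control libraries and 49.5% to 50.9% in H/R libraries, while the Jag1 share of H/R replicate 1 lies within the control range.

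Both Jagged ligands rose. Jag1 (chromosome 2, 137081456 to 137116644, minus strand) went from 840, 855 and 882 counts in the 3 controls to 1050, 1156 and 1304 with H/R. Its normalized count went from 820 ± 21.3 to 1227 ± 87.8 (SD, n = 3 each), a 1.5-fold rise (log2 fold change 0.58, standard error 0.057, adjusted p = 5.98e-11). The lowest H/R library was still well above the highest control.

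Jag2 (chromosome 12, 112908590 to 112929495, minus strand), which encodes the second Jagged ligand, went from 235, 238 and 246 counts to 293, 273 and 308. The normalized count rose from 229 ± 5.4 to 306 ± 10.7 (SD, n = 3 each), or 1.34-fold (log2 fold change 0.42, standard error 0.088, adjusted p = 0.000102). The groups did not overlap for this gene either. The share of Jag1 in the summed RPKM of both ligands was between 71.3% and 71.4% in the 3 control libraries and was 71.4%, 74.7% and 74.7% in H/R replicates 1, 2 and 3. The difference of 2.19 percentage points was not beyond the spread between libraries (p = 0.3 by the same exact permutation test). It was 3.28 points without H/R replicate 1. Of the Delta ligands with a row, none could be tested, as Dll3 had 0 to 3 counts and Dll4 had 0 to 4.

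Rbpj showed the clearest change of the members. It encodes the DNA-binding protein through which all Notch receptors act, and which holds target genes silent with corepressors when no receptor fragment is bound. Rbpj (chromosome 5, 53466152 to 53657362, plus strand) was counted 1392, 1539 and 1374 times without H/R and 2867, 2894 and 2827 times with it. No H/R library came near the control range. The normalized count was 1371 ± 113 in control cells and 3011 ± 162 in H/R cells (SD, n = 3 each), a 2.20-fold rise (log2 fold change 1.14, standard error 0.053, adjusted p = 3.02e-17). An absolute change of this size or larger was seen for 6.11% of the genes tested. GENCODE M21 lists 2 processed pseudogenes, Rbpj-ps1 and Rbpj-ps3, which had no row in the tables, and reads that fit both the gene and a copy cannot be assigned with certainty.

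As the only member past both thresholds with a promoter entry in the RefSeq-based table (build GRCm38.p6), Rbpj is shown with the window from 250 bases before to 50 bases after one of its annotated starts (chr5:53590096-53590395, plus strand). The counted gene model begins further upstream, at 53466152, and no Rbpj window searched here covers that start. Capitals mark the core of the RBPJ binding motif, TGGGAA or its reverse complement TTCCCA, and the hypoxia response core ACGTG or its reverse complement CACGT.
Rbpj promoter: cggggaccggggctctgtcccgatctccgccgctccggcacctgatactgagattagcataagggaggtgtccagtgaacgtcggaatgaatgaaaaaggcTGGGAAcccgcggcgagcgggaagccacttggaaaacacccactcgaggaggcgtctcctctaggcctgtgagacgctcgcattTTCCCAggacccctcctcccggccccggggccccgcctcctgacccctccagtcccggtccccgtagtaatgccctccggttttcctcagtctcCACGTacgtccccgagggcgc
The RBPJ core occurs in it at positions 102 and 186 and the hypoxia core at position 280, counted from 1 at the 5′ end. Both strands were searched in all 32851 windows of the table, and 25.6% held at least 1 RBPJ core, 3.79% at least 2, and 19.6% the letters ACGTG. A further hypoxia core, GCGTG, was found in 32.4% of all windows, the HES motifs CACNAG and CACGNG in 42.5% and 27.5%, and none of the 3 in this one. The letters of CACGNG can overlap those of ACGTG and GCGTG. Of the 10 windows of 8 members with an entry, the RBPJ core was present in those of Rbpj alone, which share bases with each other. The ACGTG core was present in the windows of Rbpj, Nrarp and Notch3. These are matches of letters and not binding sites. No promoter of Hes1 or Hey1 was used.

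Of the 3 target genes, Hes1 rose, Hey1 fell and Nrarp did not pass the test. Hes1 (chromosome 16, 30064384 to 30067796, plus strand), a basic helix-loop-helix repressor and the best known direct target, went from 83, 82 and 78 counts to 115, 92 and 121. The second H/R library was the lowest of its group but was still above the controls. The normalized count rose from 77.3 ± 3.45 to 115 ± 13.5 (SD, n = 3 each), or 1.48-fold (log2 fold change 0.57, standard error 0.14, adjusted p = 0.000861).

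Hey1 (chromosome 3, 8663359 to 8667256, minus strand), a related repressor with roles in vessels and heart, went from 24, 40 and 33 counts to 10, 14 and 14. It was low in both groups, and the controls spread widely. The normalized count fell from 30.9 ± 8.15 to 13.3 ± 2.25 (SD, n = 3 each), which was 2.31-fold lower after H/R (log2 fold change -1.21, standard error 0.30, adjusted p = 0.000847). Without control replicate 2, the highest library, the log2 fold change was -1.01. On log2(RPKM + 1) values, a scale that compresses low genes, it was -0.30.

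Nrarp (chromosome 2, 25180758 to 25183339, plus strand) encodes a small ankyrin repeat protein that is induced by Notch and feeds back to dampen it. Counts were 15, 9 and 25 without H/R and 13, 11 and 22 with it, and the groups overlapped. The normalized count was 15.5 ± 7.47 and 16.0 ± 5.34 (SD, n = 3 each). On the log2 scale the difference was 0.05 ± 0.36 (standard error, adjusted p = 0.92), and any change of a size near this error was not detectable at this depth. Furthermore, 79.4% of its exon length is shared with Gm38287, a gene annotated on the opposite strand, which had the same count as Nrarp in 5 of 6 libraries. Gm38287 had 15, 9 and 25 counts in control libraries and 13, 11 and 20 in H/R libraries. Such near-equal counts are what would result if each shared read was counted for both genes, whatever its strand. The strand setting of the counting is not given in the sources used here, and this was not tested. The reads of both genes therefore cannot be told apart.

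Some of the other members also share exon sequence. The genes that overlap Notch1 (0610009E02Rik and Gm13568, on the opposite strand) had together 5.46% to 6.19% of its counts in any library, and Gm42820, which lies over Notch2 on the same strand, had 6.73% to 7.85%. If shared reads were counted for both genes here too, up to these shares of the Notch1 and Notch2 counts could come from the overlapping genes. Notch3 shares 6.07% of its exon length with Gm17276, which is on the opposite strand and had 0 to 3 counts, or 0% to 66.7% of those of Notch3. Jag1, Jag2, Rbpj, Hes1 and Hey1 share no exon bases with another gene of the tables.

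**Figure D3:**
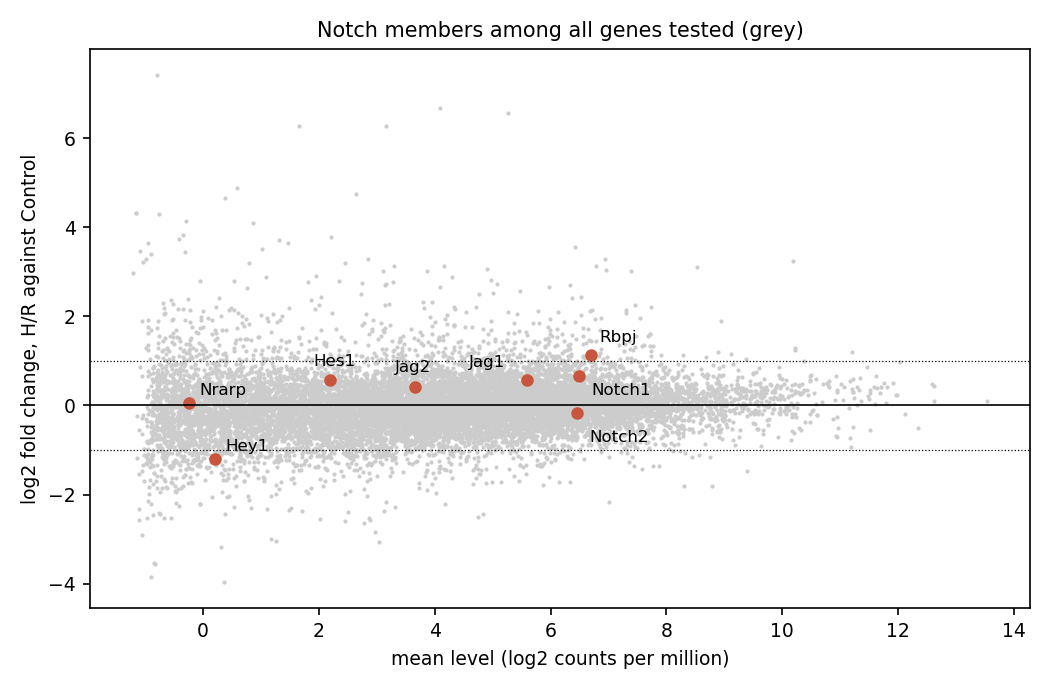
Log2 fold change of H/R against control for all 14020 genes tested (grey, 1 point per gene) against the mean level in log2 CPM (library-scaled counts), with the 8 Notch members tested in red. Dotted lines mark a 2-fold change. Rbpj lies above the upper line at a high level and Hey1 below the lower line at a low level, and the other 6 members lie between the lines.

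The order of the levels per exon length also shifted. In control cells Notch2 was highest at 8.91 ± 0.44 RPKM, followed by Jag1 (6.89 ± 0.26), Rbpj (5.26 ± 0.41), Notch1 (5.08 ± 0.11), Jag2 (2.76 ± 0.10) and Hes1 (1.86 ± 0.059), as mean ± SD of 3 libraries. The ranges of Rbpj and Notch1 overlapped, as did those of Hey1 (0.464 ± 0.12) and Nrarp (0.295 ± 0.15), while all other neighbours in this order were apart. After H/R, Rbpj (10.8 ± 0.49 RPKM) and Jag1 (9.59 ± 0.76) were highest with overlapping ranges. Notch1 (7.49 ± 0.23) and Notch2 (7.34 ± 0.29) followed with overlapping ranges, and then Jag2 (3.44 ± 0.12) and Hes1 (2.56 ± 0.31). Nrarp (0.282 ± 0.097) and Hey1 (0.185 ± 0.032) overlapped below 0.4 RPKM. Notch3 was lowest in both groups, at 0.0423 ± 0.029 RPKM and 0.0474 ± 0.010 RPKM. The target genes were thus below Notch1, Notch2 and both ligands in each group, and Hes1 was the highest of them. The Rbpj value rests on a gene model of 12750 bases, in which all annotated exons are joined.

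For Hey1, the member with the largest absolute log2 fold change, the genes tested with the most similar pattern over the 6 libraries were Nemp2, Hmgb1-ps4 and C130036L24Rik. Their distances to Hey1 in centred log2 CPM, library-scaled counts not corrected for length, were 0.187, 0.312 and 0.333, and all 3 also had low counts, with Nemp2 at 19, 33 and 28 in control libraries and 8, 10 and 10 in H/R libraries. The second control library was the highest of its group for each of these genes, as it was for Hey1. This follows from how the genes were chosen and is not a separate result. For Rbpj, a gene added here after its values were seen, they were Kmt2e, Tec and Lrrfip1, with distances of 0.0875, 0.0989 and 0.12. Kmt2e, which encodes a chromatin regulator, went from 1560, 1706 and 1546 counts to 3070, 3137 and 3264.

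The other genes of the pathway, 61 on a list ordered by their role, were examined next. Of these, 54 had a row and 50 could be tested, and 19 rose and 18 fell with an adjusted p under 0.05 while 13 did not pass. This is 74.0% of the 50, against 62.8% of all genes, and the median log2 fold change was 0.05. When libraries were scaled by their totals, which lowered the median log2 fold change of all genes from -0.01 to -0.12, 15 rose and 21 fell, and Ncstn, Dtx4, Snw1 and Tle3 no longer passed as higher. With DESeq2, 19 rose and 12 fell. The shares of all genes past the threshold in these 2 settings are not given here, and the 62.8% holds for edgeR with TMM. A 2-fold change was reached by 4 of the 50 (8.0%, against 8.52% of all genes), namely Numb and Maml1, which were higher, and Aph1b and Maml3, which were lower.

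The nuclear coactivators held the widest spread. All 8 passed the threshold of 0.05, with 4 higher and 4 lower, beside 62.8% of all genes tested that passed. Among the 8, Snw1 (log2 fold change 0.12) did not pass in edgeR with scaling by library totals (adjusted p = 0.716) or by upper quartiles (adjusted p = 0.278). Of its exon length, 42.4% is shared with other genes. Maml1, Maml2 and Maml3 encode the Mastermind proteins that complete the active complex with RBPJ, and they moved in opposite directions. Maml1 went from 302, 245 and 324 counts to 634, 582 and 595, a 2.29-fold rise (log2 fold change 1.20, standard error 0.082, adjusted p = 2.15e-14). Maml3 went from 120, 147 and 148 counts to 43, 28 and 36, a 3.52-fold decrease (log2 fold change -1.81, standard error 0.17, adjusted p = 2.83e-11). Maml2 fell less (log2 fold change -0.52, adjusted p = 0.000333). The Mastermind genes were already in this order per exon length before H/R, with Maml1 at 2.45, Maml2 at 1.20 and Maml3 at 0.618 RPKM in control cells, and after H/R they stood at 5.23, 0.777 and 0.163 RPKM. The acetyltransferase genes were split too, as Crebbp (log2 fold change 0.80) and Ep300 (0.34) rose, and Kat2a (-0.48) and Kat2b (-0.32) fell.

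Of 12 corepressor genes, with which RBPJ represses in the absence of Notch, 4 rose, 6 fell and 2 did not pass. The share that passed was 83.3%, beside 62.8% of all genes tested. The largest absolute changes were those of Cir1, which encodes a corepressor that binds RBPJ, and Spen, which encodes a large adaptor protein. Cir1 had the lowest adjusted p of this group, with a 1.79-fold rise (log2 fold change 0.84, standard error 0.055, adjusted p = 2.63e-15), and 11.7% of its exon length is shared with other genes. The log2 fold change of Spen was 0.61. Those of the deacetylase genes Hdac1 and Hdac2 were -0.15 and -0.26. With DESeq2, Ncor1, Hdac1, Ctbp1, Tle1, Tle3 and Tle4 of this group did not pass, and only Spen, Cir1, Hdac2 and Ctbp2 did. The 83.3% and 62.8% are from edgeR with TMM, and the share of all genes that passed with DESeq2 is not given here.

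Among 13 tested genes of ubiquitination and endocytosis, 6 rose, 1 fell and 6 did not pass. With 53.85% past the threshold, this group was below the 62.8% of all genes tested. The gene that fell, Neurl1b, which encodes a ubiquitin ligase (log2 fold change -0.33, adjusted p = 0.038), did not pass with DESeq2 (adjusted p = 0.183). Numb, which encodes an inhibitor that removes the receptor from the membrane, was the only one beyond 2-fold. Its counts went from 621, 608 and 610 to 1145, 1173 and 1217, and the normalized count rose from 585 ± 9.69 to 1238 ± 24.8 (SD, n = 3 each, log2 fold change 1.08, standard error 0.055, adjusted p = 2.72e-18). Scaled by library totals, the difference was 0.98 on the log2 scale, just under 2-fold. Its relative Numbl rose less (log2 fold change 0.45). The ubiquitin ligase genes Mib1 and Mib2, which act on the ligands in the sending cell, had log2 fold changes of 0.22 and 0.44 and both passed the threshold.

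Of the 8 tested genes of receptor cleavage, 2 rose, 3 fell and 3 did not pass. The 62.5% that passed were close to the 62.8% of all genes tested. Adam10, which encodes the main protease of the ligand-induced cut, rose slightly (log2 fold change 0.24), whereas Adam17 fell slightly (-0.18). Within gamma-secretase, Aph1b went from 88, 81 and 80 counts to 27, 34 and 35, a 2.35-fold decrease (log2 fold change -1.23, standard error 0.19, adjusted p = 8.58e-07). Its paralog Aph1c had 0 to 2 counts, and how reads that fit both genes were counted is uncertain. Aph1a, the more abundant subunit gene at 5.20 RPKM in control cells against 0.751 RPKM for Aph1b, had a log2 fold change of 0.02 that did not pass (standard error 0.084). Psen2 fell (log2 fold change -0.69).

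Of the 5 tested genes of receptor glycosylation and furin cleavage, 1 rose, 3 fell and 1 did not pass. That is 80.0% past the threshold, beside 62.8% of all genes tested. Pofut1, which encodes the enzyme that adds O-fucose to Notch, had the lowest adjusted p and a 1.7-fold decrease (log2 fold change -0.76, standard error 0.077, adjusted p = 1.43e-10). Of the Fringe genes, whose products lengthen this sugar, Rfng fell (log2 fold change -0.81) and Lfng rose (0.43), and Mfng had at most 1 count. The log2 fold change of Furin was -0.43.

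Beyond the listed targets, 2 of 7 other HES and HEY genes had a row. Hes6, whose product opposes HES1, fell 1.37-fold (log2 fold change -0.45, standard error 0.091, adjusted p = 5.59e-05), from 320, 324 and 308 counts to 218, 190 and 224. Hes7 had 14 to 19 counts in each library and did not pass. Dlk2, which encodes a noncanonical ligand, rose from 277 ± 9.08 to 399.5 ± 13.3 normalized counts (SD, n = 3 each, log2 fold change 0.53, adjusted p = 7.02e-07). Sox9, a biliary transcription factor gene that is known to respond to Notch, was on the biliary marker list, on which Spp1 fell. It was on neither list of Notch genes, and whether its change depended on Notch was not tested. Other Notch-responsive genes outside the lists were not surveyed. Sox9 went from 160, 200 and 186 counts to 896, 909 and 1013 (log2 fold change 2.5, standard error 0.076, adjusted p = 1.2e-24).

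**Figure D4:**
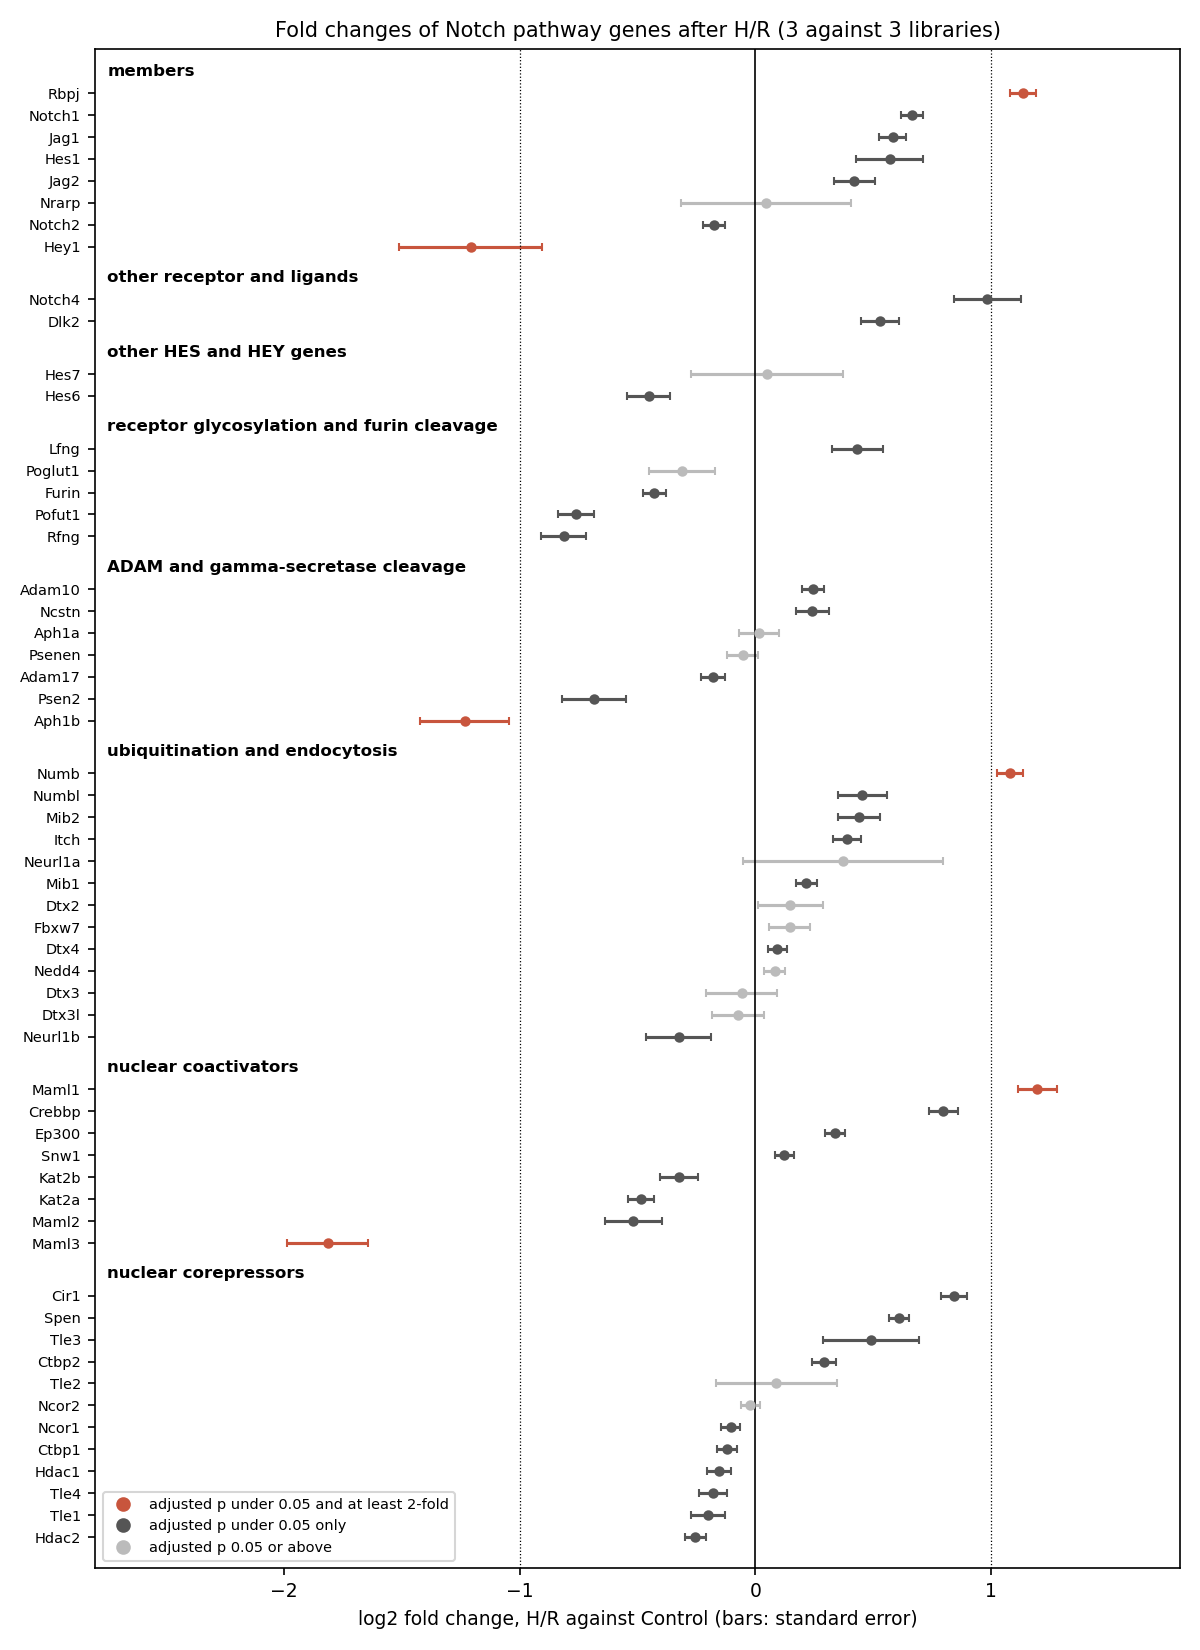
Log2 fold change of H/R against control, with the standard error as a bar, for the 8 members tested and other tested pathway genes, grouped by role. Red points have an adjusted p under 0.05 and at least a 2-fold change (dotted lines), dark points the adjusted p only, and light points neither. Of the 6 red points, Rbpj, Numb and Maml1 lie to the right and Hey1, Aph1b and Maml3 to the left.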

How the data were processed

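Total RNA of 6 AML12 samples was made into stranded mRNA libraries and sequenced with paired ends. According to the methods, reads were mapped to GRCm38, and the submitters' processing notes name Trimmomatic 0.36, featureCounts of Subread 1.5.1 and edgeR 3.12.1. The gene annotation is not given in the sources used here. The deposited counts are whole numbers per gene without normalization, and the RPKM values deposited by the authors follow from count, exon length and library total (largest relative error 1.13e-06). In 24 rows a date stood in place of the symbol. These rows were kept in the fits.

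The deposited counts were fitted with edgeR 4.0.16 under R 4.3.3 (filterByExpr, TMM, robust glmQLFit and glmQLFTest), and p-values were adjusted over 14020 genes. A gene was called at an adjusted p under 0.05 with at least a 2-fold change, as in the study. Standard errors came from the F statistic. For normalized counts, libraries were brought to the mean effective size. The labels do not say whether replicates were separate cultures, so p-values measure the spread between these libraries. All replicate pairs differed by more than counting noise (chi-square over its degrees of freedom at least 2.19).

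Members, lists and tests were chosen with earlier results of these data known. All members are described. Other pathway genes are reported in detail where called or where they had the lowest adjusted p of their step, and further ones, genes near 0 included, were chosen after their values were seen. The 3 genes most like Hey1, the member with the largest absolute change, were those at the smallest Euclidean distance in centred log2 CPM. Proteins were not printed, and single values of 1 pathway gene and 1 marker gene are not reported here. Alternatives were DESeq2 1.42.0, 2 other scalings, 2 other filters, a replicate block, non-robust dispersions, limma 3.58.1 on log2(RPKM + 1) and log2(RPKM + 0.1), a 1.5-fold threshold and leaving out each library. The code was tested on simulated data.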

Additional observations from a re-analysis of the deposited data

How the results depend on the processing

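The 7 members past an adjusted p of 0.05 kept their direction and stayed past it in all 15 alternatives. The number past both thresholds was 2 under every scaling and filter and with any 1 library left out, 3 at a 1.5-fold threshold, 1 for limma with a pseudocount of 0.1 and 0 with a pseudocount of 1. These limma fits also use RPKM, which is scaled by library totals, so scaling and pseudocount change together. Rbpj had log2 fold changes of 1.02 and 0.91 in them, against 1.03 in edgeR with scaling by totals and 1.14 with TMM. Of the other pathway genes 4 were called, but 0 for limma with a pseudocount of 1 and 11 at a 1.5-fold threshold. There were 3 when libraries were scaled by totals, and 5 for DESeq2 and without control replicate 3 or H/R replicate 2 or 3, settings in which Notch4 reached a log2 fold change of at least 1.00. Among all genes 1195 were called, but 406 for limma with a pseudocount of 1 and 3420 at a 1.5-fold threshold. Higher genes made up 49.9% of calls with TMM, 37.0% when scaled by totals and 41.3% when scaled by upper quartiles.

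Nrarp did not pass in any alternative and changed sign in some. The log2 difference was -0.025 by upper quartiles, -0.059 by totals, and -0.012 and -0.014 for limma with pseudocounts of 1 and 0.1. Leaving out single libraries gave -0.26 to 0.48. The gene was not tested with at least 10 counts required in each library. Low counts limit Nrarp, Notch3 and Hey1.

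Correlations between same-numbered libraries, after group means were removed, were -0.027, 0.0048 and -0.014. They showed no shared replicate effect across genes. The labels do not say whether same-numbered libraries were handled together, and correlations near 0 cannot decide this. Under a replicate block 2 members were called and 7 passed an adjusted p of 0.05, 4 other pathway genes and 1200 of all genes were called, and Rbpj had a log2 fold change of 1.14. The Notch1 share rose by 13.6 to 14.9 percentage points with 1 library left out and by 14.4 on counts, and the Jag1 share by 1.64 to 3.28 points and by 1.81.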
